A study of Mus musculus with 16 samples.

Results

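Plasmacytoid dendritic cells (pDCs) were the cells to which the authors had given the cell type name Plasmacytoid_DC, and they numbered 60 of the 20376 cells of the data set. They had been captured from subcutaneous tumors of NB9464D cells, a mouse neuroblastoma line, grown in male C57BL/6 mice that were 8 weeks old when inoculated and were taken 28 days later. Single cells had been released with type IV collagenase at 1 mg/mL and captured with 10x Genomics 3' chemistry (V3). The groups were CD45+ leukocytes sorted from tumors of mice lacking CD200R (KO sorted), CD45+ leukocytes sorted from tumors of wild-type mice (WT sorted), all cells of KO tumors (KO tumor) and all cells of WT tumors (WT tumor). All groups shared the strain, the sex, the graft and the day, and the labels name the genotype CD200R-/- for the samples but CD200-/- in the growth protocol. The labels list 4 samples in each of the 4 groups, but a cell carries only the name of its group, so each group is 1 library here. The spread between animals is therefore unknown, and nothing was tested.

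pDCs are dendritic cells with the shape of a plasma cell. They sense viral and self nucleic acids through TLR7 and TLR9 in endosomes and are known for a rapid release of type I interferon. Their identity rests on the E protein E2-2, encoded by Tcf4, which is opposed by the inhibitor Id2, and mouse pDCs are commonly recognised by Siglec-H and BST2. In tumors they have often been described as weak producers of interferon.

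The 60 cells came from 3 libraries, with 34 cells from the KO sorted, 17 from the WT sorted, 9 from the KO tumor and 0 from the WT tumor library. Together they held 544643 unique molecular identifiers (UMIs, tags that count RNA molecules once each), 343562 of them in the KO sorted, 168449 in the WT sorted and 32632 in the KO tumor library. The median pDC had 8065.5 UMIs (1025 to 28398) and 2692.5 genes, and the medians by library were 8118.5 UMIs in the KO sorted, 8587 in the WT sorted and 3401 in the KO tumor library. The median mitochondrial share was 6.58% of UMIs in the KO sorted, 4.96% in the WT sorted and 5.96% in the KO tumor pDCs, and the median share of ribosomal protein RNA was 15.2%, 20.2% and 19.7% in the same order. pDCs were set against 4 other names of the authors, which are Myeloid_DC (352 cells, median 14950 UMIs), CD11c+_resident_DC (116 cells, 18571 UMIs), Migratory_DC (171 cells, 10092 UMIs) and B_cells (2300 cells, 2501.5 UMIs). No pDC shared its barcode with a cell of another library, although 113 barcode sequences occurred in more than 1 library. Expression is written as CPM, which is a gene's UMIs summed over the cells of a class and scaled to 1000000 UMIs of that class. Intervals are at 95% and hold the error of counting UMIs or cells, but not how cells or animals vary. A gene is called higher or lower at a difference of 2-fold or more. Levels given by library describe the spread between libraries. With 1 library a group they do not compare KO with WT.

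The promoters of 3 genes, Siglech, Ccr9 and Klk1, are shown first as examples from the genes that set the 60 cells apart most. Each window runs from 250 bases before to 50 bases after the start of the gene in RefSeq (GRCm38.p6), 5' to 3' on the plus strand. Capitals mark the hexamer CAGGTG, or CACCTG where it lies on the other strand, which is 1 form of the E-box CANNTG that E proteins bind. The hexamer and the 3 genes were chosen after the values had been seen. All 3 hold the hexamer, so they do not stand for the leading genes as a whole.
Siglech, chr7:55767934-55768233: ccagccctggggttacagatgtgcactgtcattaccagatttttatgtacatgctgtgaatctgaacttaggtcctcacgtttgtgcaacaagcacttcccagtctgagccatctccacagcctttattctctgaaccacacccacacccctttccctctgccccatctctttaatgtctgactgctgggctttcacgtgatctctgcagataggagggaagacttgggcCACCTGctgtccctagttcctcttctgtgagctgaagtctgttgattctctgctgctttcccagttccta
Ccr9, chr9:123766961-123767260: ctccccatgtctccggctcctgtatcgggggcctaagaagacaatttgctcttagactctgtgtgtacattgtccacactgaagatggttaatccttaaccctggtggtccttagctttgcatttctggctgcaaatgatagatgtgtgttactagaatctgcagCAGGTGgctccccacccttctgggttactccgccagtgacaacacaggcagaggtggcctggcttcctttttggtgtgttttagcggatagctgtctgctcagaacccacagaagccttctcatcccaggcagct
Klk1, chr7:44225110-44225409: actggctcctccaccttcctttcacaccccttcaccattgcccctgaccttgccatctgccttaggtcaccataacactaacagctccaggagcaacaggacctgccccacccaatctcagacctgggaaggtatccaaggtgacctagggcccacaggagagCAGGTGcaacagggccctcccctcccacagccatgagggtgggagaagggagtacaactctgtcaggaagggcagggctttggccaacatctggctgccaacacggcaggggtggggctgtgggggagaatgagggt
The hexamer lies 20 bases before the start of Siglech, 85 bases before that of Ccr9 and 87 bases before that of Klk1. Of the 15 leading pDC genes named below, 11 had a promoter window in the RefSeq table, and 8 of these (72.7%) held CAGGTG or CACCTG, against 6098 of all 27025 genes with a window (22.6%). Eldr and Dntt, which rank above Klk1 among the leading genes, and Klra17 had a window with 0 matches. The wider pattern CANNTG occurred in all 11, but also in 75.0% of all genes with a window. A match describes the letters of the window and does not show binding.

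The name given by the authors matched the markers of the cell type. Siglech, which encodes a sialic acid-binding receptor of mouse pDCs (chr7:55768178-55778925), had a UMI in 60 of 60 pDCs, and 58 of them had UMIs of all 4 markers Siglech, Bst2, Irf8 and Tcf4, the other 2 having 3. Outside the name, Siglech was present in 20 of 20316 cells (0.0984%), with 86 UMIs in all, and in 0 of 2300 B cells. Of those 86 UMIs, 47 lay in 1 Migratory_DC cell of the KO sorted library, which also had UMIs of 6 of 7 migratory markers and 12 of the 15 leading pDC genes. A cell named NK_cells in the WT sorted library held 13 Siglech UMIs, 12 of the 15 leading genes and all 5 natural killer markers. The pDC marker combination (Siglech together with at least 2 of Bst2, Irf8 and Tcf4) was found in 17 cells of other names, of which 11 were in the KO sorted, 4 in the WT sorted, 2 in the KO tumor and 0 in the WT tumor library.

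Not every cell was free of other RNA. Of the 60 pDCs, 12 had UMIs of at least 3 markers of macrophages, T cells, natural killer cells, neutrophils or, leaving out immunoglobulins, B cells. They comprised 9 with macrophage, 3 with T cell, 2 with natural killer, 1 with neutrophil and 1 with B cell markers other than immunoglobulins, and 1 cell can count under several types. These 12 cells, 7 from the KO sorted and 5 from the WT sorted library, were also the deeper ones, with a median of 16910.5 UMIs against 7745.5 UMIs in the other 48. The other 48 are not free of such RNA: they have fewer than 3 markers of each of these types, and 2 of them, both KO sorted, had 3 of 4 endothelial markers. Over all 60 cells the summed level of 8 macrophage markers was 575 CPM, that of 6 T cell markers was 402 CPM, that of 5 natural killer markers was 79.0 CPM and that of 5 neutrophil markers was 77.1 CPM, and 85.7% of the neutrophil UMIs lay in 1 cell. Mast cell and fibroblast markers had 0 UMIs. By library, the macrophage sum was 591 CPM in the KO sorted, 594 CPM in the WT sorted and 306 CPM in the KO tumor pDCs, and the natural killer sum was 122 CPM, 5.94 CPM and 0 CPM in the same order. In 1 cell lay 55.8% of the natural killer UMIs, and the 2 pDCs with at least 3 natural killer markers were both KO sorted. Markers of conventional type 2 DCs were the most widespread of the dendritic lists, with at least 3 of 6 in 23 pDCs, against 2 pDCs for type 1 and 0 for migratory markers. Some values in the 48 cells are given beside the results below.

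pDCs were under 1% of the cells of every library, and a larger part of the KO than of the WT libraries. In the sorted libraries they were 34 of 4305 KO cells, or 0.790% (Clopper-Pearson interval 0.548 to 1.102), and 17 of 5219 WT cells, or 0.326% (0.190 to 0.521). The difference KO minus WT was 0.464 percentage points (Newcombe interval 0.167 to 0.799), a ratio of 2.42. With cells removed as doublets that had at least 3 markers of each of 2 lineages, a rule that took 42 of the 60 pDCs, it was 0.067 points (-0.254 to 0.412), with 8 KO and 7 WT pDCs left. With that rule without immunoglobulins it was 0.440 points (0.0421 to 0.875). Among the names of leukocytes alone the shares were 0.984% in KO and 0.414% in WT. With all cells counted that carried the marker combination, whatever their name, the KO sorted library had 45 (1.05%) and the WT sorted library 21 (0.402%).

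Among dendritic cells alone no difference in the pDC share was detectable with these numbers of cells. Of all cells of the 4 dendritic names, pDCs were 34 of 365 (9.32%, 6.54 to 12.8) in the KO sorted and 17 of 210 (8.10%, 4.79 to 12.6) in the WT sorted library, a difference of 1.22 points (-3.95 to 5.76) whose interval includes 0. The other dendritic names were also larger parts of the KO sorted library. Myeloid DCs made up 4.09% of KO and 2.24% of WT cells, CD11c+ resident DCs 1.51% and 0.575%, and migratory DCs 2.09% and 0.881%. In the libraries of whole tumors, pDCs were 9 of 5897 KO cells (0.153%, 0.0698 to 0.290) and 0 of 4955 WT cells, whose Clopper-Pearson upper limit is 0.0744% (a floor of 3 counts would be 0.0605%). The KO tumor library held 108 dendritic cells in all, against 16 in the WT tumor library. Of these, 9 (8.33%, 3.88 to 15.2) were pDCs in the KO tumor library and 0 in the WT tumor library, with an upper limit of 20.6%. With 1 library a group, genotype and differences between animals, grafts or preparations cannot be told apart, and the pDC share was not compared beyond these counts.

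**Figure D1:**
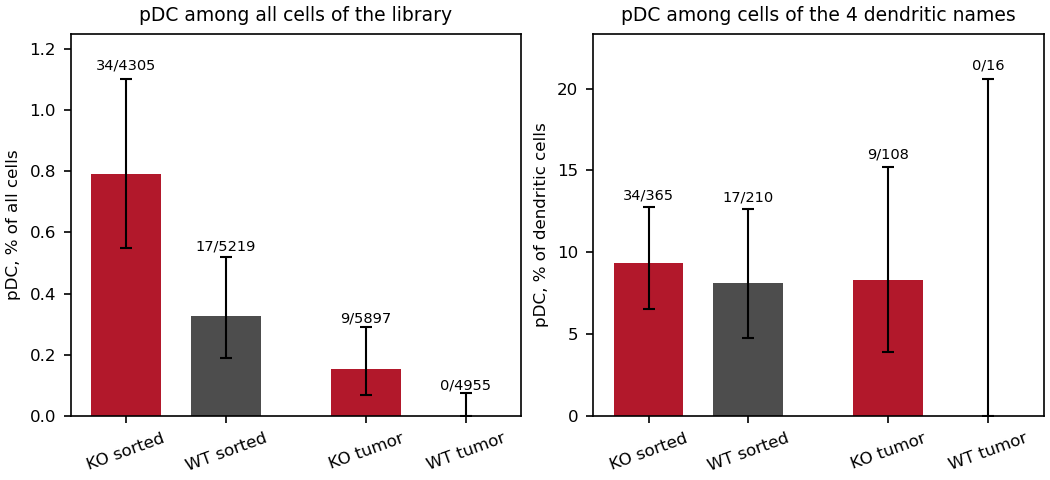
Share of pDCs (y axis, percent) in the KO and WT libraries of each preparation, among all cells (left) and among cells of the 4 dendritic names (right). Bars are shares, whiskers are 95% Clopper-Pearson intervals and labels give pDCs over cells: 0.790% of KO against 0.326% of WT sorted cells, but 9.32% against 8.10% of sorted dendritic cells.

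Surface receptors separated pDCs from every other class. Siglech averaged 2391 CPM in pDCs (2262 to 2524), with 891 UMIs in the KO sorted, 336 in the WT sorted and 75 in the KO tumor library, which is 2593 CPM in the KO sorted, 1995 CPM in the WT sorted and 2298 CPM in the KO tumor library. The KO sorted library was the highest and the WT sorted the lowest, and the level was 1.46 CPM in myeloid, 0.48 CPM in CD11c+ resident and 25.8 CPM in migratory DCs and 0 CPM in B cells. The log2 ratio of pDCs over myeloid DCs was 10.68 (9.75 to 11.81), that over migratory DCs was 6.53 (6.12 to 6.98), and that over B cells was at least 12.19, with the 0 UMIs of B cells set to a floor of 3. Without the KO sorted library these ratios were 11.61, 10.58 and at least 11.27, and without the WT sorted library the ratio over B cells was at least 11.20. The 1 migratory cell described above held 47 of the 48 Siglech UMIs of its class. Without the 17 cells of other names that carried the marker combination, the ratio over migratory DCs was at least 10.50. It was 11.60 with doublets removed.

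Ccr9, the receptor for the gut and thymus chemokine CCL25 (chr9:123678439-123784330), averaged 2009 CPM (1891 to 2131). By library it was at 2282 CPM in the KO sorted, 1514 CPM in the WT sorted and 1685 CPM in the KO tumor library, the lowest value being in the WT sorted library. The comparison classes had 11.8 CPM in myeloid, 6.23 CPM in CD11c+ resident and 21.0 CPM in migratory DCs and 1.02 CPM in B cells, and the log2 ratio over myeloid DCs was 7.41 (7.06 to 7.77), or 9.62 without the KO sorted and 6.79 without the WT sorted library. Bst2, which encodes the tetherin antigen that several pDC antibodies recognise, was at 2796 CPM (2658 to 2940) and at 2276 CPM in the KO sorted, 3651 CPM in the WT sorted and 3861 CPM in the KO tumor library. Here the KO sorted library was the lowest. Migratory DCs came closest, with 197 CPM and a log2 ratio of 3.83.

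Other receptors of the list were also far above the dendritic classes, and Ly6d was shared with B cells. Ly6c2, a GPI-anchored antigen that has near-identical copies in the genome and is therefore uncertain, was at 1518 CPM, against 44.3 CPM in myeloid DCs (log2 ratio 5.10, 4.90 to 5.30, or 6.33 without the KO sorted library). Lair1, an inhibitory collagen receptor, was at 896 CPM, against 48.5 CPM in myeloid DCs (log2 ratio 4.21). Ly6d, a marker of early B lineage cells that pDC precursors share, was at 1271 CPM in pDCs and 1634 CPM in B cells, a log2 ratio of -0.36 (-0.48 to -0.25), while dendritic classes had at most 26.4 CPM. Of the 12 surface receptors, 12 were at least 2-fold higher in pDCs than in myeloid DCs, 11 than in CD11c+ resident DCs, 12 than in migratory DCs and 11 than in B cells, and 0 were lower in any comparison. Of all measured genes, 17%, 18.7%, 26.4% and 20.4% were that much higher in the same 4 comparisons. The authors' names rest on the same cells' RNA, so these ratios describe pDCs and do not test the name.

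**Figure D2:**
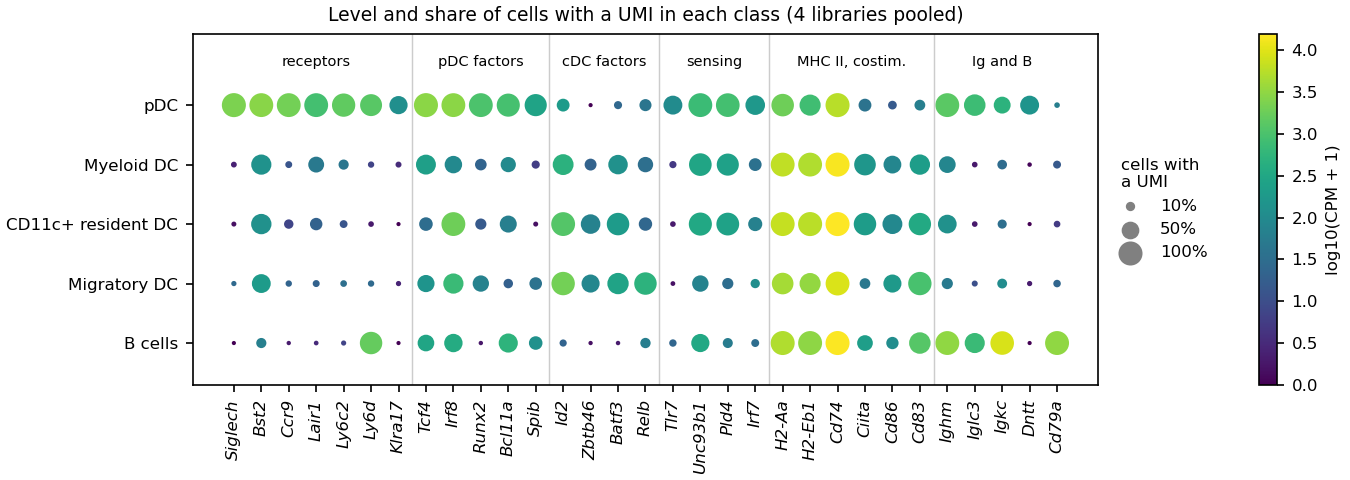
Genes (x axis, grouped by role) in pDCs and the 4 comparison classes (rows), with the colour giving log10(CPM + 1) and the dot area the percent of cells with a UMI. The pDC row is filled for Siglech (100%) and Tcf4, nearly empty for Zbtb46 (0 UMIs), and shares Ighm with B cells.

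Among the transcription factors, those of the pDC program were mostly higher than in the other classes, and several of those of conventional dendritic cells were lower than in the other dendritic classes. Tcf4 averaged 2932 CPM (2790 to 3080), with 1251 UMIs in the KO sorted, 270 in the WT sorted and 76 in the KO tumor library, or 3641 CPM in the KO sorted, 1603 CPM in the WT sorted and 2329 CPM in the KO tumor library. The KO sorted library was the highest and the WT sorted the lowest, and per cell the level ran over a range of 2.94 to 97.6 UMIs per 10000. B cells had 294 CPM (log2 ratio 3.32, 3.22 to 3.42), myeloid DCs 223 CPM (3.72, or 2.35 with doublets removed) and CD11c+ resident DCs 29.3 CPM (6.65, or 6.01 without the KO sorted library).

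Runx2, which is needed for pDCs to leave the bone marrow, and Bcl11a, needed for their development, showed the same order of libraries as Tcf4. Runx2 was at 1278 CPM in the KO sorted, 576 CPM in the WT sorted and 797 CPM in the KO tumor library. Bcl11a was at 1141 CPM in the KO sorted, 505 CPM in the WT sorted and 735 CPM in the KO tumor library. Both were lowest in the WT sorted pDCs, whose median share of ribosomal protein RNA was the highest of the 3 libraries at 20.2% and whose mitochondrial share was the lowest at 4.96%. The part of these shares in the levels was not tested, and with 1 library a group the order cannot be read as an effect of genotype. Runx2 was nearest in migratory DCs at 68.4 CPM (log2 ratio 3.92, 3.64 to 4.20), and Bcl11a in B cells at 511 CPM (log2 ratio 0.85, 0.71 to 0.98).

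Irf8, a factor shared by pDCs and the conventional type 1 lineage, was even between libraries, at 2969 CPM in the KO sorted, 3057 CPM in the WT sorted and 2973 CPM in the KO tumor library. CD11c+ resident DCs came close, with 1870 CPM and a log2 ratio of 0.68 (0.60 to 0.76), whereas myeloid DCs had 93.6 CPM. Spib, an Ets factor of pDCs and B cells, was at 268 CPM in pDCs and 129.6 CPM in B cells, and its log2 ratio of 1.05 (0.78 to 1.31) was 0.83 without the KO sorted library and so under 2-fold. Zeb2, a repressor that acts in pDC commitment, was at 749 CPM in pDCs and 587 CPM in myeloid DCs (log2 ratio 0.35). Cbfa2t3, which encodes the corepressor ETO2, was the only listed pDC factor that was lower in pDCs in any comparison, at 222 CPM against 447 CPM in migratory DCs (log2 ratio -1.01, -1.30 to -0.73, or -0.85 without the WT sorted library). Of the 8 pDC factors, 6 were higher than in myeloid DCs, 6 than in CD11c+ resident DCs, 7 than in migratory DCs and 6 than in B cells. Among all measured genes 17%, 18.7%, 26.4% and 20.4% were higher in these comparisons.

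Zbtb46, a factor specific to conventional DCs and their precursors, had 0 UMIs in the 60 pDCs, where 3 counts would be 5.51 CPM, against 19.95 CPM in myeloid, 71.5 CPM in CD11c+ resident and 86.7 CPM in migratory DCs. Batf3, required for conventional type 1 DCs, had 13 UMIs in 4 cells (23.9 CPM), and its log2 ratio over CD11c+ resident DCs was -3.04 (-3.96 to -2.25), or -5.10 without the KO sorted library and -6.09 in the 48 cells. Id2 had 104 UMIs, all in 14 cells, and averaged 191 CPM, against 478 CPM in myeloid, 1178 CPM in CD11c+ resident and 2018 CPM in migratory DCs. The log2 ratio of Id2 over myeloid DCs was -1.33 (-1.62 to -1.04). The 12 cells with markers of other types carried nearly all of this RNA. In the other 48 pDCs Id2 was at 23.1 CPM with 8 UMIs, and the log2 ratio over myeloid DCs was -4.37. Batf3 had 1 UMI in those 48 cells. Of the 8 conventional DC factors, 5 were lower in pDCs than in myeloid DCs, 4 than in CD11c+ resident and 6 than in migratory DCs, and 1 than in B cells, where 6 could be measured. Higher in pDCs were Irf4 against CD11c+ resident DCs, and Id2 and Nfil3 against B cells. The share of all measured genes that were lower was 16.2%, 14.9%, 15.6% and 12.6% in these comparisons.

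By the ratio to the nearest of the 4 classes, the 15 leading genes of pDCs were Gm21762, Eldr, Cox6a2, Ccr9, Siglech, Dntt, Klk1, Sh3bgr, Klk1b27, Cd300c, Gm34680, Paqr5, Slco4a1, Pgam2 and Klra17. A single pDC had UMIs of 2 to 15 of them, with a median of 10.5. The first, the predicted gene Gm21762, was at 1098 CPM, with 1289 CPM in the KO sorted, 712 CPM in the WT sorted and 1073 CPM in the KO tumor library, and migratory DCs had 5.38 CPM (log2 ratio 7.67, 6.78 to 8.74). In the 1 migratory cell described above lay 8 of the 10 migratory UMIs, and against the 2 UMIs of the others the ratio was 9.96 (8.11 to 13.01). Cox6a2 and Pgam2 encode the muscle forms of a cytochrome c oxidase subunit and of phosphoglycerate mutase. Cox6a2 was at 1164 CPM, in 48 of 60 pDCs, and by library at 803 CPM in the KO sorted, 1935 CPM in the WT sorted and 981 CPM in the KO tumor library. All 19 Cox6a2 UMIs of migratory DCs lay in the 1 cell described above, and CPM of the other classes was at most 0.811 in myeloid DCs.

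Klk1, a tissue kallikrein whose reads could be split with near-identical family members such as Klk1b27, had 330 UMIs in 43 pDCs and 0 UMIs in myeloid DCs, CD11c+ resident DCs and B cells. Its level was 506 CPM in the KO sorted, 712 CPM in the WT sorted and 1103 CPM in the KO tumor library. All 13 Klk1 UMIs of migratory DCs were again in the 1 cell, and without it the log2 ratio was at least 8.52. Dntt, the enzyme that adds untemplated bases at the joints of rearranging antigen receptor genes, was at 149 CPM, in 35 of 60 pDCs, at 119 CPM in the KO sorted, 196 CPM in the WT sorted and 215 CPM in the KO tumor library. The comparison classes held almost none of it, with 0 UMIs in B cells and CD11c+ resident DCs and at most 1.08 CPM in migratory DCs. Of the 19 other genes linked to pDCs that could be measured against dendritic classes, 17 were higher than in myeloid DCs, 17 than in CD11c+ resident DCs and 18 than in migratory DCs, and 17 of 20 were higher than in B cells. Examples were Atp1b1, a subunit of the sodium pump, at 655 CPM against 2.92 CPM in myeloid DCs (log2 ratio 7.81), and Rnase6, a secreted ribonuclease, at 1063 CPM against 238 CPM in CD11c+ resident DCs (log2 ratio 2.16). Among all measured genes 17%, 18.7%, 26.4% and 20.4% were higher against myeloid, CD11c+ resident and migratory DCs and B cells.

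The machinery for sensing nucleic acids was present, but Ifnb1, which encodes interferon beta, was not detected. Tlr7, the endosomal receptor for single-stranded RNA (chrX:167304929-167330558), had 56 UMIs in 35 of 60 pDCs, with 36 UMIs in the KO sorted, 18 in the WT sorted and 2 in the KO tumor library. Its 103 CPM (77.7 to 134) compared with 4.06 CPM in myeloid, 0.959 CPM in CD11c+ resident and 0.538 CPM in migratory DCs and 22.3 CPM in B cells, and the log2 ratio over B cells was 2.20 (1.73 to 2.67). Tlr9, the receptor for unmethylated CpG DNA, had 1 UMI in the 60 cells and at most 1.87 CPM in the other classes, so no difference was detectable at this depth. Tlr12, which pairs with TLR11 for parasite profilin in mice, had 19 UMIs in 15 pDCs (log2 ratio over CD11c+ resident DCs 2.60).

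Some partners of these receptors were also higher in pDCs, and others were lower in some comparisons. Unc93b1, the chaperone that brings endosomal TLRs to endosomes, was at 678 CPM in the KO sorted, 819 CPM in the WT sorted and 613 CPM in the KO tumor library. Its level in the other classes was 299 CPM in myeloid, 329 CPM in CD11c+ resident and 73.8 CPM in migratory DCs and 329.6 CPM in B cells, with a log2 ratio over B cells of 1.12 (0.96 to 1.28) that was 0.93 without the WT sorted library. Pld4, an endosomal exonuclease that trims single-stranded nucleic acids, was at 876 CPM against 266 CPM in CD11c+ resident DCs (log2 ratio 1.72, 1.54 to 1.90). Irf7, the factor that drives interferon alpha genes, was at 154 CPM in the KO sorted, 208 CPM in the WT sorted and 184 CPM in the KO tumor library, with a narrow spread, and migratory DCs had 115 CPM (log2 ratio 0.58, 0.22 to 0.94, under 2-fold). Of the listed sensing genes, 6 of 17 were higher in pDCs than in myeloid DCs, 6 of 17 than in CD11c+ resident, 7 of 16 than in migratory DCs and 8 of 16 than in B cells, and 1, 3, 3 and 0 were lower in the same comparisons. The lower ones were Irf5 against myeloid DCs, Tlr3, Myd88 and Irf5 against CD11c+ resident DCs, and Ap3b1, Traf6 and Traf3 against migratory DCs. Of all measured genes, 17%, 18.7%, 26.4% and 20.4% were higher against myeloid, CD11c+ resident and migratory DCs and B cells. The shares that were lower were 16.2%, 14.9%, 15.6% and 12.6% in the same order.

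Ifnb1 had 0 UMIs in the 60 pDCs, where 3 counts would be 5.51 CPM, and 0 UMIs in the 4 comparison classes. Ifng, the type II interferon gene, had 3 UMIs in 1 pDC. The interferon alpha genes were not analysed here. Genes that respond to type I interferon were mixed. Of 27 that could be measured against myeloid DCs, 8 were higher and 6 lower, and against migratory DCs 4 of 22 were higher and 8 lower. Against CD11c+ resident DCs 4 of 22 were higher and 3 lower, and against B cells 9 of 24 were higher and 4 lower. Of all measured genes, 17%, 26.4%, 18.7% and 20.4% were higher in the same order. The shares of all genes that were lower were 16.2%, 15.6%, 14.9% and 12.6%. Stat2, a subunit of the transcription factor ISGF3, was at 99.1 CPM against 26.1 CPM in myeloid DCs (log2 ratio 1.92, 1.45 to 2.38, or 2.64 without the KO sorted library). Ifit1, Ifit2 and Ifit3, which encode antiviral proteins that are strongly induced by interferon, had 1 UMI each in the 60 cells. Ifitm3, which blocks viral entry, was at 169 CPM against 915 CPM in myeloid DCs (log2 ratio -2.44, -2.75 to -2.14), -3.04 without the WT sorted library and -5.72 in the other 48 pDCs.

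The secretory pathway was above B cells and migratory DCs and close to the 2 other dendritic names. Of 25 genes of protein export and folding in the endoplasmic reticulum, 20 were higher in pDCs than in B cells and 18 than in migratory DCs, against 4 for myeloid and 2 for CD11c+ resident DCs. The shares of all measured genes that were higher were 20.4%, 26.4%, 17% and 18.7% in that order. The median log2 ratios of the list were 1.67, 1.24, 0.43 and 0.31 in that order. The median of all measured genes was itself shifted, at 0.15 for B cells, 0.32 for migratory, 0.02 for myeloid and 0.09 for CD11c+ resident DCs. Xbp1, the transcription factor of secretory cells, was at 611 CPM in the KO sorted, 344 CPM in the WT sorted and 368 CPM in the KO tumor library. It was the highest in the KO sorted library, and the other classes had 227 CPM in myeloid, 135 CPM in CD11c+ resident and 47.9 CPM in migratory DCs and 38.5 CPM in B cells (log2 ratio over B cells 3.74, and over myeloid DCs 1.18, 0.99 to 1.36).

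**Figure D3:**
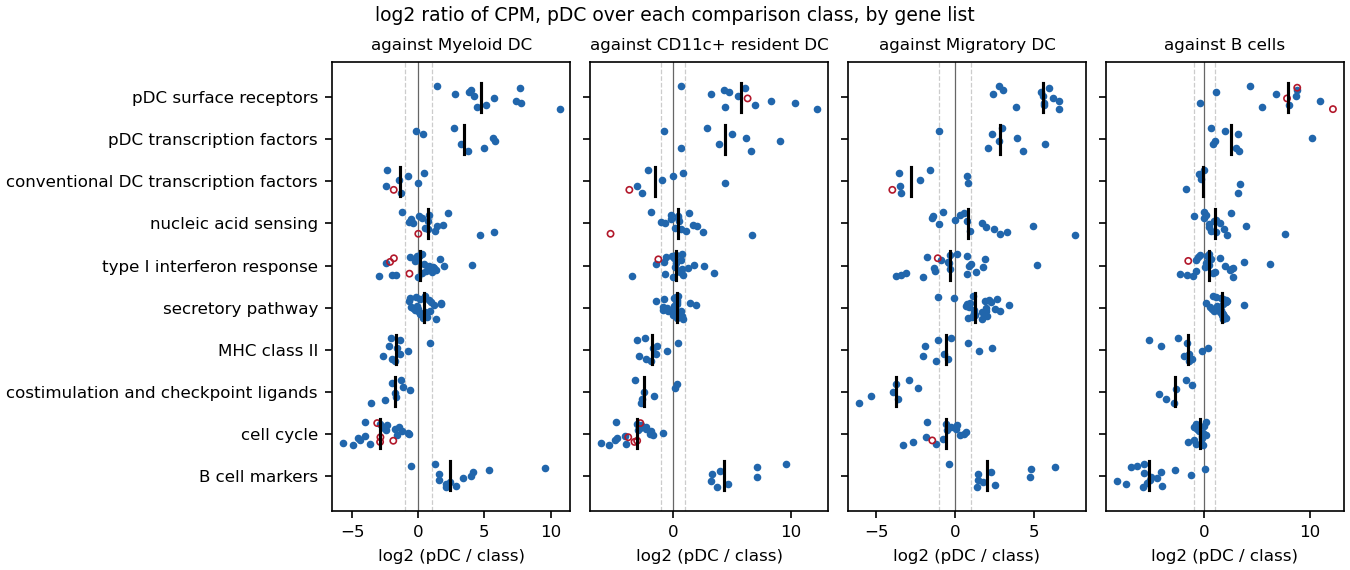
Log2 ratio of CPM, pDCs over each comparison class (x axis), for the members of 10 gene lists (rows). Filled points are ratios, open points are bounds against a floor of 3 UMIs (a bound that falls short of 0 is drawn at 0), black ticks are list medians and dashed lines mark 2-fold; the medians of the surface receptors lie to the right in all 4 panels and those of MHC class II genes to the left, at -1.66 against myeloid DCs.

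RNA of class II antigen presentation was lower than in myeloid DCs, CD11c+ resident DCs and B cells, and less so against migratory DCs. H2-Aa, H2-Ab1 and H2-Eb1 encode chains of the class II molecules that present peptides to CD4+ T cells, and Cd74 encodes their invariant chain. H2-Aa was at 1691 CPM in the KO sorted, 2297 CPM in the WT sorted and 1624 CPM in the KO tumor library of pDCs. All 3 libraries lay below the 6224 CPM of myeloid, 6871 CPM of CD11c+ resident and 4340 CPM of migratory DCs and the 5050 CPM of B cells. The log2 ratio over myeloid DCs was -1.73 (-1.82 to -1.64) for H2-Aa, -1.97 (-2.07 to -1.87) for H2-Ab1, -2.64 (-2.78 to -2.50) for H2-Eb1 and -1.37 (-1.42 to -1.32) for Cd74. Against migratory DCs they were -1.21 for H2-Aa, -0.47 for H2-Ab1, -2.02 for H2-Eb1 and -0.69 for Cd74. Ciita, the class II transactivator, had 21 UMIs in 14 pDCs, and its log2 ratio over CD11c+ resident DCs was -2.36 (-3.07 to -1.73), or -1.77 without the KO sorted library. The peptide-loading chain H2-DMa went the other way against migratory DCs, at 441 CPM against 157 CPM (log2 ratio 1.49, 1.23 to 1.74, or 2.18 without the KO sorted library). In all, 8 of 10 class II genes were lower than in myeloid DCs, 8 than in CD11c+ resident DCs, 4 than in migratory DCs and 8 than in B cells, and 2 were higher than in migratory DCs. Among all measured genes 16.2%, 14.9%, 15.6% and 12.6% were lower in the same order, and 26.4% were higher than in migratory DCs.

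Costimulatory and checkpoint ligands were scarce. Cd86, a ligand of CD28, had 8 UMIs in 5 pDCs, at 14.7 CPM against 82.3 CPM in myeloid DCs (log2 ratio -2.49, -3.71 to -1.50). It was -1.70 without the KO sorted library, -3.67 without the WT sorted library and -3.83 in the other 48 cells. Cd83, which stabilises class II on mature DCs, was at 34.9 CPM in the KO sorted, 131 CPM in the WT sorted and 0 CPM in the KO tumor library. All 22 WT sorted UMIs lay in 1 cell, the one with UMIs of all 16 B cell markers described below. The log2 ratio over myeloid DCs of -1.75 (-2.29 to -1.26) was -0.62 without the KO sorted library, -2.88 without the WT sorted library and -3.60 in the other 48 cells. Of the list, 7 of 8 measured genes were lower than in myeloid DCs, 5 of 7 than in CD11c+ resident DCs, 7 of 7 than in migratory DCs and 6 of 6 than in B cells, and none was higher. Among all measured genes 16.2%, 14.9%, 15.6% and 12.6% were lower in the same order.

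pDCs shared immunoglobulin RNA with B cells, and had little of the other B cell RNA. Ighm, the constant region of IgM (chr12:113418558-113422730), had a UMI in 59 of 60 pDCs and stood at 1391 CPM in the KO sorted, 1175 CPM in the WT sorted and 1195 CPM in the KO tumor library. The median pDC depth was 8065.5 UMIs and that of myeloid DCs 14950 UMIs, yet only 44.0% of myeloid DCs had an Ighm UMI, against 98.3% of pDCs. With each cell thinned to 1000 UMIs the shares were 75.0% of pDCs and 8.83% of myeloid DCs. The mean of 1313 CPM (1218 to 1413) lay between the 3138 CPM of B cells (log2 ratio -1.26, -1.37 to -1.15) and the 128 CPM of CD11c+ resident DCs (3.36, 3.15 to 3.57). Iglc3, a lambda light chain constant region that is nearly identical to Iglc2 and so uncertain, was at 760.1 CPM in pDCs and 713 CPM in B cells (log2 ratio 0.09, -0.06 to 0.24), but at 0.973 CPM in myeloid, 0.959 CPM in CD11c+ resident and 9.69 CPM in migratory DCs. Igkc, the kappa constant region, was at 503 CPM against 8713 CPM in B cells (log2 ratio -4.11, -4.29 to -3.94). It was at 28.1 CPM in myeloid, 31.7 CPM in CD11c+ resident and 104 CPM in migratory DCs, so in those classes kappa exceeded Iglc3 as in B cells.

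The balance of light chains differed from that of B cells. The 2 lambda genes together had 1.95 times the UMIs of kappa in pDCs and 0.297 times in B cells. Lambda exceeded kappa in 40 of 60 pDCs (66.7%), against 224 of 2300 B cells (9.74%). Of the other pDCs, 10 had more kappa and 10 had neither. RNA of B cell identity was rare. Cd79a, a signaling chain of the B cell receptor, had 32 UMIs, all in 1 WT sorted cell, which had UMIs of all 16 B cell markers and 21.1% of the B cell marker UMIs of the 60 pDCs. Its log2 ratio over B cells was -5.77 (-6.32 to -5.27), or -4.55 without the KO sorted and -8.29 without the WT sorted library, a bound. In the other 48 cells Ighm was at 1538 CPM and Iglc3 at 883 CPM, while Cd79a and Pax5 had 0 UMIs and Cd79b, the partner chain of Cd79a, had 16. Of the 16 B cell markers 15 were lower in pDCs than in B cells, Iglc3 being the other, against 12.6% of all measured genes. Mzb1, a chaperone of immunoglobulin assembly in the endoplasmic reticulum, was at 143 CPM, against 279 CPM in B cells (log2 ratio -0.96) and at most 1.62 CPM in dendritic classes.

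**Figure D4:**
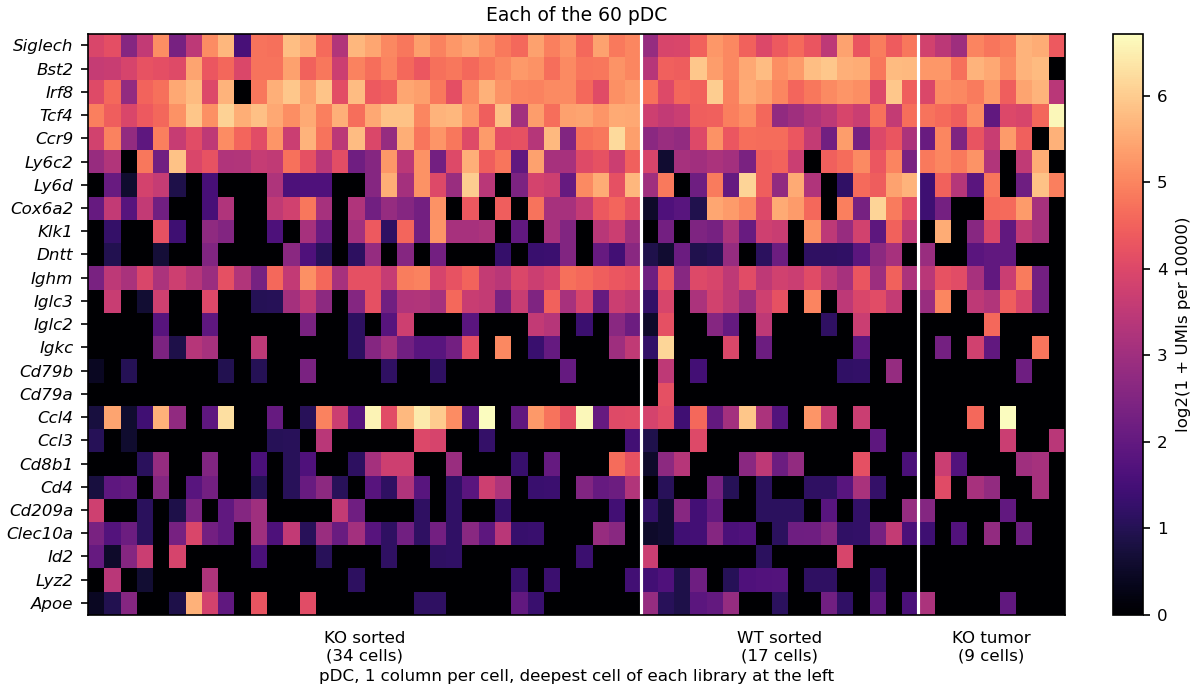
Each column is 1 of the 60 pDCs, ordered by depth within the KO sorted, WT sorted and KO tumor libraries, and each row a gene; colour is log2(1 + UMIs per 10000). Siglech is present in every column and Ighm in 59, whereas Ccl4 ranges from 0 to 104 UMIs per 10000, Cd79a lies in 1 column, and Id2 lies mainly in deep cells.

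Among chemokines and homing receptors, Ccl4 varied widely between single pDCs. Ccl4, an inflammatory chemokine, was at 1937 CPM (1822 to 2058), in 43 of 60 pDCs, at 2329 CPM in the KO sorted, 1253 CPM in the WT sorted and 1348 CPM in the KO tumor library. In the KO tumor library 2 of 9 cells held all 44 UMIs, 35 of them in 1 cell. The other classes had 314 CPM in myeloid, 371 CPM in CD11c+ resident and 160.5 CPM in migratory DCs and 34.2 CPM in B cells, and the log2 ratio over CD11c+ resident DCs was 2.39 (2.25 to 2.52). Single cells ran from 0 to 104 UMIs per 10000 with a median of 4.48, and in the other 48 cells the level was 2254 CPM. Of 16 cytokines and chemokines, 6 had 0 UMIs in pDCs, among them Il6, Il12b and Cxcl9. Of the 14 measured against migratory DCs, 3 were higher and 10 lower, such as Ccl5, a chemokine for lymphocytes, at 49.6 CPM in pDCs against 6611 CPM. Against myeloid DCs 1 of 13 was higher and 5 lower, against CD11c+ resident DCs 4 of 12 were higher and 6 lower, and against B cells 6 of 8 were higher and 0 lower. Of the homing receptors, 5 of 13 were higher than in myeloid DCs, 5 of 10 than in CD11c+ resident DCs, 7 of 11 than in migratory DCs and 5 of 13 than in B cells, and 1, 0, 3 and 5 were lower. Beside both lists, 17%, 18.7%, 26.4% and 20.4% of all measured genes were higher against myeloid, CD11c+ resident and migratory DCs and B cells. Those that were lower made up 16.2%, 14.9%, 15.6% and 12.6%. Ccr7, the receptor for lymph node homing, had 16 UMIs in 4 pDCs, at 29.4 CPM against 2539 CPM in migratory DCs (log2 ratio -6.43, -7.24 to -5.73, or -8.78 in the 48 cells). Ccr2, a receptor for the chemokine CCL2, was at 345 CPM in pDCs against 656 CPM in myeloid DCs (log2 ratio -0.93, -1.14 to -0.71, or -1.58 in the 48 cells). Cxcr3, the receptor for CXCL9 and CXCL10, was at 14.6 CPM in the KO sorted, 107 CPM in the WT sorted and 123 CPM in the KO tumor library. It was the lowest in the KO sorted library, and its log2 ratio over myeloid DCs was 4.80 (3.74 to 5.96), or 6.39 without the KO sorted and 3.63 without the WT sorted library.

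Lymphoid coreceptors were present too. Cd4, known on a subset of mouse pDCs, was at 217 CPM in 38 of 60 cells, against 5.84 CPM in myeloid DCs (log2 ratio 5.21, 4.66 to 5.79, or 6.02 without the KO sorted library). Cd8b1, the beta chain of CD8, was at 236 CPM in the KO sorted, 344 CPM in the WT sorted and 337 CPM in the KO tumor library, against at most 16.2 CPM in the other classes (log2 ratio over migratory DCs 4.09, 3.52 to 4.71). In the other 48 cells Cd8b1 was at 320 CPM, where Trac, the constant region of the T cell receptor alpha chain, had 3 UMIs. Genes of the cell cycle were low against myeloid and CD11c+ resident DCs. Of 21 genes, 19 were lower than in myeloid and 20 than in CD11c+ resident DCs, against 6 of 15 for migratory DCs and 1 of 14 for B cells. The shares of all measured genes that were lower were 16.2%, 14.9%, 15.6% and 12.6% in the same order. Top2a, a topoisomerase of dividing cells, had 6 UMIs in 4 pDCs (log2 ratio over myeloid DCs -3.65, -5.10 to -2.52).

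The genes lowest in pDCs against all other dendritic classes began with Bcl2a1d, which encodes a BCL-2 relative and has near-identical copies, and Cd81, a tetraspanin. Bcl2a1d was at 12.9 CPM against 217 CPM in myeloid DCs (log2 ratio -4.08, -5.39 to -3.03, or -5.40 without the KO sorted library). Cd81 had 6 UMIs in the 60 pDCs, against 123 CPM in CD11c+ resident DCs (log2 ratio -3.48, -4.94 to -2.34). It was -4.41 in the 48 cells. Cd81, Axl and Lyz2 are known from transitional DCs, which resemble pDCs. Of the list of transitional genes, 3 of 7 were lower than in myeloid DCs, 3 of 6 than in CD11c+ resident DCs, 2 of 5 than in migratory DCs and 1 of 3 than in B cells, and 1, Cd5, was higher than in CD11c+ resident DCs. Among all measured genes 16.2%, 14.9%, 15.6% and 12.6% were lower in the same order, and 18.7% were higher than in CD11c+ resident DCs. Axl had 5 UMIs in 1 pDC, and Lyz2 was at 106 CPM, with 14 UMIs (40.4 CPM) in the 48 cells. Klf4, a transcription factor of the same list, was at 257 CPM against 449 CPM in myeloid DCs (log2 ratio -0.80).

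The targeted receptor was seen in pDCs of the wild type alone. Cd200r1 (chr16:44765736-44794978) had 0 UMIs in the 34 KO sorted pDCs, where 3 counts would be 8.73 CPM, and 0 in the 9 KO tumor pDCs, where they would be 91.9 CPM. In the 17 WT sorted pDCs it had 9 UMIs in 5 cells, at 53.4 CPM, and in the 48 pDCs, KO and WT together, 1 UMI remained. KO cells of the 4 comparison classes had 0 UMIs, and of the WT cells myeloid DCs had 203 UMIs (76.1 CPM), CD11c+ resident DCs 13 (15.5 CPM), migratory DCs 4 (6.44 CPM) and B cells 3 (0.933 CPM). The labels do not say which exons the allele lacks, so these 3' tags report on the transcript alone. The ligand gene Cd200 was at 87.3 CPM in the KO sorted, 107 CPM in the WT sorted and 30.6 CPM in the KO tumor library of pDCs. Its mean over the 60 pDCs was set against 94.7 CPM in B cells (log2 ratio -0.07, -0.53 to 0.35, or 0.52 without the KO sorted library) and was below the 433 CPM of migratory DCs (log2 ratio -2.27, -2.72 to -1.85).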

How the data were processed

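Single-cell RNA sequencing had been done on 16 samples in 4 groups of 4 (CD45+ sorted cells or all tumor cells, CD200R-deficient or wild type). Per the submitters' processing notes, the tools were Cell Ranger 6.0.1 and Seurat 4.0.5 and the genome build was mm10, with no step given for either tool. The deposited matrix holds natural log values, ln(1 + 10000 × UMIs of a gene / UMIs of the cell), which the authors made from counts. The authors also deposited the total UMI count, the number of genes and a cell type name for each cell. How they filtered cells or treated doublets is not given in the sources used here.

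Each value was turned back into UMIs with the total of its cell. All 60957742 nonzero values came out whole within 0.01 UMI, and the sums over 19715 genes equalled the deposited totals in all 20376 cells. Columns of values that belonged to no group numbered 0. Cells could not be traced to samples, so each group was 1 library. The libraries held 29200338 (KO sorted), 62509573 (WT sorted), 103877007 (KO tumor) and 103277632 (WT tumor) UMIs.

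UMIs were summed over the cells of a class and scaled to its total (CPM). Genes with at least 20 UMIs over the 2 classes compared were measured, which left 10320 against myeloid DCs, 8428 against CD11c+ resident DCs, 8013 against migratory DCs and 9588 against B cells. A 2-fold difference was called, and a class at 0 UMIs was set to 3 counts. At 95%, CPM has exact Poisson intervals, ratios conditional binomial ones, shares Clopper-Pearson ones and differences of shares Newcombe ones. Because droplets hold different depths, shares were also taken after thinning each cell to 1000 UMIs. Named genes are the members of 30 gene lists, Cd200 and Cd200r1, and the 15 genes at each end of the ratio to the nearest class. Leading genes needed a UMI in at least 25% of pDCs, and genes at the low end at least 100 CPM in each other dendritic class. The cells, the lists and the rules were chosen with earlier results of these data known. Coordinates are those of the GENCODE annotation of GRCm38 (mm10). The calling was tested on simulated data. Python 3.11.15, numpy 2.4.6, scipy 1.17.1, pandas 2.3.3 and matplotlib 3.10.9 were used. The alternatives were thinning, removal of doublets, other denominators and UMI minimums, equal weight per cell, leaving out each library, sorted libraries alone, and cell sets chosen after seeing the data.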

Additional observations from a re-analysis of the deposited data

How the results depend on the processing

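With 60 pDCs from 3 libraries, 1 per group, counting error is the only error that could be measured. No paired analysis was possible because the cells carry no replicate number and no test was made. Of 84 named ratios, 71 were at least 2-fold, none of these turned sign, and of their 1063 values under other settings 1048 stayed at least 2-fold and 15 fell under it. Leaving out a library moved 32 ratios by over 1.5 times, leaving out the 12 pDCs with at least 3 markers of another type moved 19, thinning 37, removing doublets 42 and equal weight per cell 24; the cause was not tested.

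The difference in pDC share between KO and WT sorted libraries was 0.067 percentage points with doublets removed (at least 3 markers of each of 2 lineages), a rule that took 42 of 60 pDCs (70.0%), 37 of them with at least 3 B cell markers. It was 1.22 points among dendritic names. With immunoglobulins and Irf4 left out of the rule and dendritic, macrophage and neutrophil lists taken as 1 lineage, an alternative chosen after seeing the data, 7 pDCs were removed and the difference was 0.440 points. In the tumor libraries the difference was 0.728 points (-0.504 to 1.377) among leukocyte names and 8.33 points (-11.4 to 15.1) among dendritic names. With doublets removed it was 0.114 points (-0.229 to 0.333), with 3 KO and 0 WT pDCs left. With doublets removed without immunoglobulins it was 0.349 points (-0.0942 to 0.662). All of these tumor intervals include 0. Thinning left 460 genes higher in pDCs than in myeloid DCs, 248 than in CD11c+ resident and 343 than in migratory DCs, in place of 1752, 1580 and 2118, and 693, 264, 449 and 767 lower than in myeloid, CD11c+ resident and migratory DCs and B cells, in place of 1675, 1258, 1250 and 1205. With doublets removed, 1038 were higher and 1098 lower than in myeloid DCs. A minimum of 50 UMIs left 947 higher and 807 lower than in CD11c+ resident DCs and 1197 higher than in migratory DCs. With no minimum 2805, 2821, 3681 and 3280 genes were higher than in myeloid, CD11c+ resident and migratory DCs and B cells, in place of 1959 for B cells. Leaving out 1 library gave 1427 to 1754, 1021 to 1570, 1196 to 2111 and 1638 to 1953 genes higher in the same order, the lowest for CD11c+ resident and migratory DCs being without the KO sorted library, and 1472 to 1702, 1055 to 1251, 959 to 1255 and 1131 to 1337 lower.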

Other observations

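Of 4 listed genes of endothelium, Pecam1, Cdh5 and Kdr had UMIs in pDCs and Egfl7 had 0. These 3 were higher in pDCs than in each other dendritic class. Against B cells Cdh5 and Kdr were higher and Pecam1 was lower. Among all measured genes 17%, 18.7%, 26.4% and 20.4% were higher against myeloid, CD11c+ resident and migratory DCs and B cells, and 12.6% were lower than in B cells. Cdh5, which encodes VE-cadherin, had 34 UMIs in 21 of 60 cells (69.9 CPM in the KO sorted, 47.5 CPM in the WT sorted and 61.3 CPM in the KO tumor library), against 0.324 CPM in myeloid DCs (log2 ratio 7.59, 5.62 to 10.69, 6.97 without the WT sorted and 8.49 without the KO tumor library). In the 48 pDCs with fewer than 3 markers of macrophages, T cells, natural killer cells, neutrophils or B cells it was at 69.3 CPM in 14 cells, and Kdr, a receptor of vascular endothelial growth factor, at 40.4 CPM in 9 cells. Clec10a, a lectin of conventional type 2 DCs, was at 307 CPM in 48 of 60 pDCs, against 224 CPM in myeloid DCs (log2 ratio 0.45, 0.21 to 0.68) and 12.5 CPM in CD11c+ resident DCs. The other type 2 markers did not follow it against myeloid DCs. Of 5 measured, Cd209a, Mgl2 and Sirpa were lower in pDCs and 0 were higher, against 16.2% and 17% of all measured genes. The list summed to 782 CPM in pDCs and 2335 CPM in myeloid DCs. Against CD11c+ resident DCs 5 of 5 were higher, as were 18.7% of all measured genes.

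Some cells named Myeloid_DC carried as much Tcf4 as pDCs with less of the other pDC genes. Of 352 cells, 14 were at or above 18.5 Tcf4 UMIs per 10000, the lower quartile of pDCs, and these 14 held 43.1% of the Tcf4 UMIs of their name. In them Ccr9 was at 325 CPM and Runx2 at 320 CPM, against 2299 and 1223 CPM in the 45 pDCs above the same level, while Siglech was at 33.1 CPM against 2662 CPM and Klk1 had 0 UMIs. Zbtb46 was at 82.6 CPM in the 14 cells and 0 in the pDCs, whereas Id2 was at 149 CPM in the 14 cells and 140 CPM in the 45 pDCs. The 45 pDCs include some of those with at least 3 markers of another type, which carried nearly all of the Id2 RNA. In the 48 pDCs without so many such markers Id2 was at 23.1 CPM, with 8 UMIs. The 14 cells and the 45 pDCs were selected on Tcf4, so its level in them is not a result. No cell of the CD11c+ resident or migratory names reached 18.5 Tcf4 UMIs per 10000. Of 2300 B cells, 43 did, and they held 12.3% of the Tcf4 UMIs of their name. In these B cells Siglech, Ccr9 and Runx2 were at 0 CPM.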
